A study of Mus musculus with 2 samples.

Results

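The genes described here are 10 microRNA (miRNA) genes of the imprinted Dlk1-Dio3 domain on mouse chromosome 12, from Mir770 in Meg3 to Mir370 in Rian. They were selected by symbol and by position in mm10, and number 10 of the 2202 miRNA genes in the tables. A further 10 miRNA genes within the same stretch and the 44 of the domain's distal cluster serve as comparison. The tissue was left cerebral cortex of adult B6CASTF1/J mice (F1 animals from C57BL/6J and CAST/EiJ parents) aged 18 to 20 months, with no treatment named in the labels. The labels name The Jackson Laboratory as the supplier and give 1 group of 2 biological replicates with 1 library each, made by microRNA sequencing from total RNA with a size limit of under 30 nucleotides. They disagree on sex (female in the sex field, male in the free text), and both libraries carry the same donor identifier. The spread between the libraries may therefore be technical, and no contrast of treatment, age or tissue exists.

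Imprinted genes are read from the chromosome of 1 parent. In this domain the protein-coding genes Dlk1, Rtl1 and Dio3 are transcribed from the paternal chromosome, while Meg3, the RNA antisense to Rtl1, Rian and Mirg are transcribed from the maternal chromosome and carry the miRNAs and small nucleolar RNAs. The miRNAs antisense to Rtl1, a gene derived from a retrotransposon and needed in the placenta, pair perfectly with the Rtl1 transcript and can direct its cleavage in trans. The domain's miRNAs are known for high expression in embryo, placenta and brain, and in brain mostly in neurons. The parental origin of the reads was not measured here. Rtl1, Meg3 and Rian transcripts were not measured either, because the libraries hold short RNA.

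All 10 hairpins lie on the forward strand within 54645 bases. Mir770 (chromosome 12, 109563692 to 109563785, mm10) lies inside Meg3, in an intron or an exon depending on the transcript: 4 annotated Meg3 transcripts span it and 1 of them has it in an exon. Mir337 (109585789 to 109585885), Mir540 (109586080 to 109586146) and Mir665 (109586314 to 109586407) stand close together between Meg3 and Rtl1, with gaps of 194 and 167 bases, and overlap no annotated gene on their own strand. Mir431 (109590447 to 109590537), Mir433 (109591715 to 109591838), Mir127 (109592846 to 109592915), Mir434 (109594506 to 109594599) and Mir136 (109595327 to 109595388) lie opposite the coding exon of Rtl1, whose gene runs from 109589193 to 109600330 on the reverse strand. Mir370 (109618258 to 109618336) lies in an intron of Rian, 22869 bases past Mir136.

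The mature sequences of the 3 most abundant of these genes are shown with the seed (bases 2 to 8 from the 5′ end, which set target choice) in capitals. Each hairpin can give an arm from its 5′ and its 3′ side, and the deposited counts do not separate the arms. All sequences are from RefSeq (GRCm38.p6, the mm10 build), where 10 of 10 genes matched with identical hairpin coordinates.
miR-127-5p: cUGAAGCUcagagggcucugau
miR-127-3p: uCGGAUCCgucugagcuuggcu
miR-770-5p: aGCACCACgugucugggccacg
miR-770-3p: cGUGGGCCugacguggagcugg
miR-433-5p: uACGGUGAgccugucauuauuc
miR-433-3p: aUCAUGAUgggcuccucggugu

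All 10 mature sequences from Mir431, Mir433, Mir127, Mir434 and Mir136 has 1 perfect full-length complement in the annotated Rtl1 transcript (6358 nucleotides), and the 10 from Mir770, Mir337, Mir540, Mir665 and Mir370 have 0. The complements follow from the position of the hairpins on the opposite strand of the coding exon. The sites of the 3′ arms of miR-127 and miR-433 in Rtl1 are shown 5′ to 3′, from transcript position 2642 to 2663 and from 3749 to 3770.
Rtl1 site of miR-127-3p: agccaagctcagacggatccga
Rtl1 site of miR-433-3p: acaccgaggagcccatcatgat

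The 20 mature sequences, 20 to 26 nucleotides long, have 20 distinct seeds, so no member shares a seed with another. Of these seeds, 2 occur in a miRNA outside the 10 genes, and both pairs are shown because they are the seed families that the genes belong to. Mir6915, on chromosome 10, was low at 10.3 CPM (counts per 1000000 sense counts of miRNA genes) in replicate 1 and 10.1 CPM in replicate 2. Mir1193, a gene of the distal cluster, was at 34.3 CPM and 22.0 CPM.
miR-540-3p: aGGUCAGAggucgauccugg
miR-6915-5p: aGGUCAGAgcagauggagguucgu
miR-370-5p: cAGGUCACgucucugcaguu
miR-1193-3p: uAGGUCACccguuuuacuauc

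The libraries held 5166667 sense counts of miRNA genes in replicate 1 and 4459993 in replicate 2, and a count of 0 allows up to 0.581 CPM and 0.673 CPM. Intervals and this limit cover counting error only. Reads with several places in the genome, 41.8% and 46.4% of all reads, are listed apart from the genes. The 11 neuron miRNA genes used to check the tissue summed to 36826 CPM and 32458 CPM, of which Mir128-1 alone gave 20358 CPM and 14077 CPM. Of the 11, 8 reached 2 CPM in both libraries. The 3 copies of miR-124, which share their mature sequence, had at most 21 counts each. The counts of the 3 copies of miR-9 were low as well, from Mir9-2 (2.32 and 2.69 CPM) to Mir9-3 (57.9 and 102.2 CPM). Reads with several places are not in these counts, so miR-124, miR-9 and the neuron sum may be counted too low. Both oligodendrocyte genes were present, at 3945 CPM and 3862 CPM together. Genes of other tissues were low: the red cell list at 79.2 CPM and 52.7 CPM, the liver gene Mir122 at 54.6 CPM and 60.1 CPM, and the striated muscle list at 18.2 CPM and 65.5 CPM with 4 of its 5 genes at 0 counts. In bulk tissue, fewer cells of a type and less RNA per cell cannot be told apart.

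Together the 10 genes held 8.07% of sense counts in replicate 1 (exact Clopper-Pearson 95% interval 8.05% to 8.10%) and 6.36% in replicate 2 (6.34% to 6.38%). Their summed level was 72163 ± 12110 CPM (SD, n = 2). All 10 were expressed, meaning 2 CPM or more in both libraries, as were 18.6% of all genes in the table. All 10 also stood above 100 CPM in both libraries, a level passed by 8.22% of all genes. Above 1000 CPM in both stood 6 of the 10, against 3.54% of all genes. Of the 44 genes of the distal cluster, 5 of them on the reverse strand without sense counts, 23 stood above 100 CPM and 8 above 1000 CPM in both libraries. The median of the mean levels of the 10 proximal genes was 1307 CPM, beside 88.9 CPM over the 409 expressed genes. No test was made on the list.

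Mir127 (ENSMUSG00000070076.2), whose product is a perfect complement of Rtl1, was the highest of the 10, with sense counts of 312085 (replicate 1) and 174822 (replicate 2). That is 60404 CPM (95% exact interval 60198 to 60609) and 39198 CPM (39018 to 39378), or 49801 ± 14995 CPM (SD, n = 2). By these counts it ranked 4th in replicate 1 and 5th in replicate 2 among all miRNA genes. Reads with several places are not in the counts, so genes with copies elsewhere may rank too low. Mir127 alone made up 74.8% of the counts of the 10 genes in replicate 1 and 61.6% in replicate 2. Without it the other 9 genes summed to 20322 CPM and 24401 CPM, so the libraries stood in the opposite order once Mir127 was left out. The 5 genes opposite Rtl1 together held 6.96% and 5.06% of sense counts, and 0.922% and 1.14% without Mir127.

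Mir770 (ENSMUSG00000076451.1), the gene inside Meg3, came next, with 7474 CPM (replicate 1) and 9335 CPM (replicate 2). Mir433 (ENSMUSG00000070072.1), opposite Rtl1 and 1007 bases from Mir127, followed at 6724 CPM and 9004 CPM. The ranges of Mir770 and Mir433 overlapped, although Mir770 was the higher in each library. Mir770 ranked 27th and 21st among all genes and Mir433 28th and 23rd, again by counts that leave out reads with several places.

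A middle group of 5 genes lay between 726.2 CPM and 1485 CPM in either library. Mir337 (ENSMUSG00000065526.4) had 1429 CPM (replicate 1) and 1485 CPM (replicate 2). Mir434 (ENSMUSG00000070133.1), opposite Rtl1, stood at 1418 CPM and 1382 CPM. The counting intervals of Mir337 (1396 to 1462 CPM) and Mir434 (1385 to 1451 CPM) overlapped in replicate 1. In replicate 2 they did not, with 1450 to 1521 CPM for Mir337 and 1348 to 1417 CPM for Mir434. Mir370 (ENSMUSG00000065433.1), the gene in Rian, was at 1172 CPM and 1256 CPM, and Mir431 (ENSMUSG00000070080.1), opposite Rtl1, at 939.1 CPM and 918.6 CPM. Mir540 (ENSMUSG00000072900.2) was at 726.2 CPM and 782.7 CPM. On total counts both libraries were close to each other at all 5, with an SD of 1.56% to 5.30% of the mean. The closeness depended on the scaling. With DESeq2 size factors the SD ran from 77.9 CPM at Mir431 to 185.0 CPM at Mir337, beside 14.5 CPM and 39.9 CPM on total counts.

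The lowest members were Mir665 and Mir136. Mir665 (ENSMUSG00000076313.1) had 1550 and 530 sense counts, which is 300.0 CPM and 118.8 CPM. Mir136 (ENSMUSG00000104858.1), the member nearest the start of the Rtl1 coding part, had 730 and 526 counts, or 141.3 CPM and 117.9 CPM. In replicate 2 the intervals of Mir665 (108.9 to 129.4 CPM) and Mir136 (108.1 to 128.5 CPM) overlapped almost entirely. In counts, the highest gene exceeded the lowest 428-fold in replicate 1 and 332-fold in replicate 2, although Mir127 and Mir136 lie opposite the same exon. Whether the libraries captured different miRNA sequences equally was not tested.

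**Figure D1:**
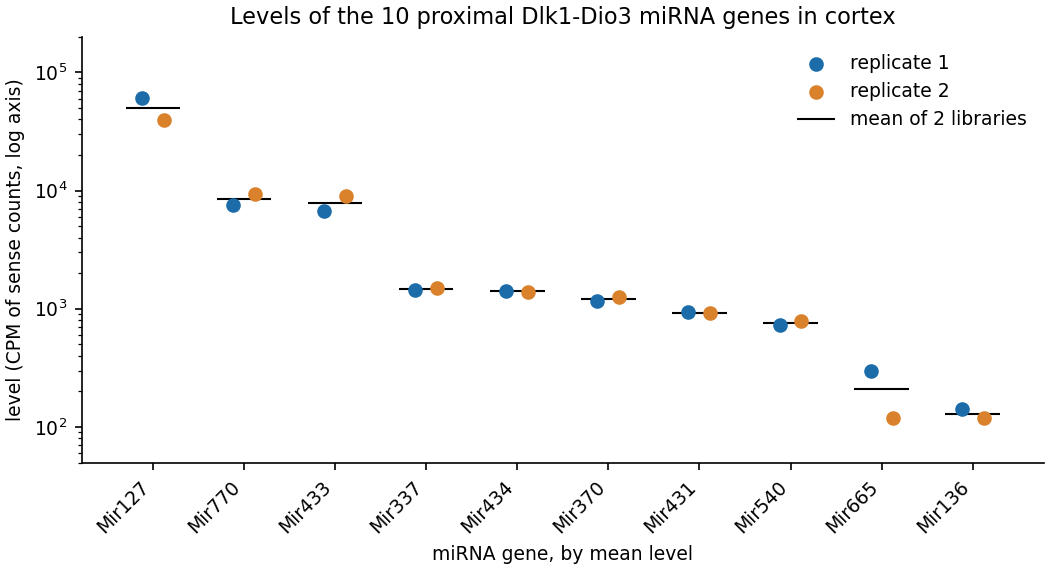
Level of each of the 10 miRNA genes in CPM of sense counts (log axis) in replicate 1 and replicate 2, with a line at the mean of the 2 libraries, ordered by mean. Mir127 stands apart at the top (60404 and 39198 CPM), and Mir665 has the widest gap between its points (300.0 and 118.8 CPM).

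The order of the 10 genes from highest to lowest was identical in both libraries: Mir127, Mir770, Mir433, Mir337, Mir434, Mir370, Mir431, Mir540, Mir665 and Mir136. On total counts, 7 of the 9 neighbouring pairs in this order had ranges that did not overlap between the libraries. Mir770 with Mir433 and Mir665 with Mir136 did overlap. The number depended on the scaling. With DESeq2 size factors Mir337 (1463 ± 185.0 CPM) and Mir434 (1402 ± 114.2 CPM, SD, n = 2) overlapped too. With 2 libraries a range is a weak measure of spread. The largest steps were 5.93-fold from Mir127 to Mir770 and 5.40-fold from Mir433 to Mir337, both in mean CPM.

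Neighbouring genes could differ widely in level. Mir127, the highest gene, and Mir136, the lowest, both lie opposite the Rtl1 coding exon, and Mir433 (7864 ± 1612 CPM) stands 1177 bases from Mir431 (928.9 ± 14.5 CPM). Of the 3 genes between Meg3 and Rtl1, Mir337 was the highest and Mir665 the lowest in both libraries, and these 3 summed to 2455 CPM and 2387 CPM. The genes at both ends, Mir770 and Mir370, were at 8405 ± 1316 CPM and 1214 ± 59.6 CPM.

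**Figure D2:**
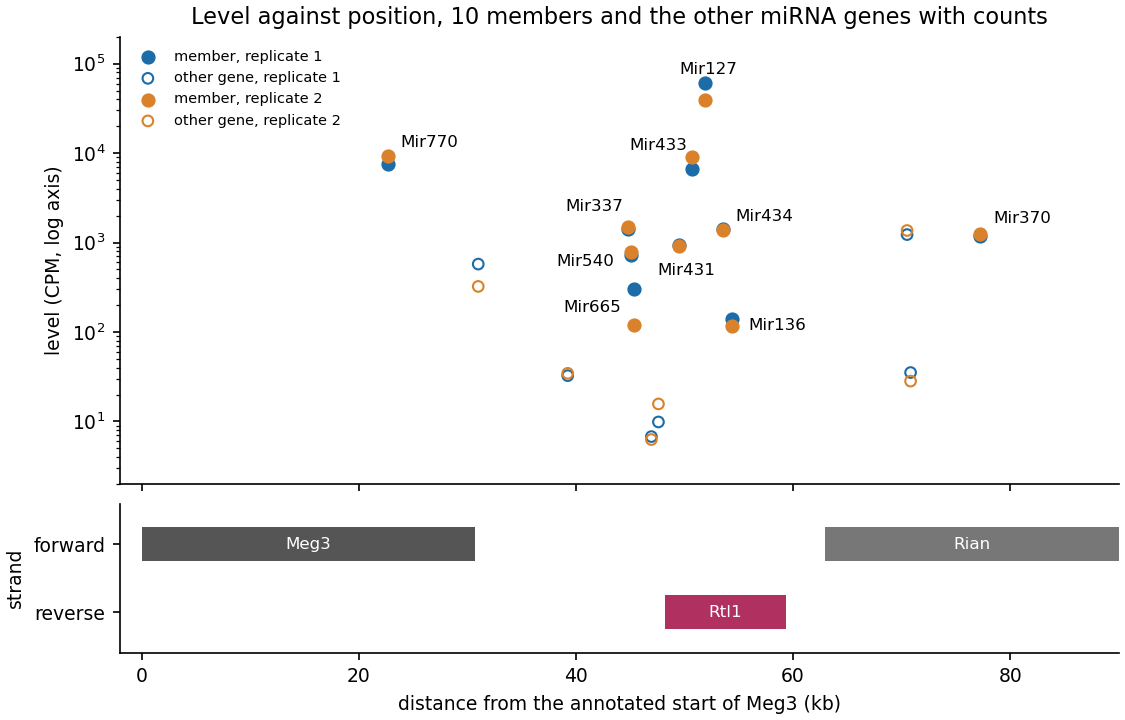
Upper panel: level in CPM (log axis) against distance in kb from the annotated start of Meg3, for the 10 genes (filled) and the 6 other miRNA genes of the stretch with counts (open), 1 point per library. Lower panel: annotated extent of Meg3, Rtl1 and Rian by strand, with Rian running on past the right edge; Mir127 (60404 and 39198 CPM) and Mir136 (141.3 and 117.9 CPM) lie over the same Rtl1 bar.

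Of the 10 other annotated miRNA genes within the stretch, 6 were expressed (60%), and together they held 0.189% and 0.177% of sense counts. Mir341, in an intron of Rian like Mir370, was the highest at 1228 CPM and 1364 CPM, followed by Mir673, just past Meg3, at 574.6 CPM and 323.3 CPM. Mir493 (32.5 and 34.5 CPM), Mir1188 (35.2 and 28.3 CPM), Mir3070b (9.87 and 15.7 CPM) and Mir3070a (6.77 and 6.28 CPM) were lower. Mir3070a and Mir3070b share miR-3070-5p, so the levels of that pair are uncertain. Mir432, Mir3544, Mir3071 and Gm23912 had 0 sense counts in both libraries.

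Both Mir337 and Mir136 lie opposite another miRNA gene, Mir3544 and Mir3071, so their counts depend on strand. The 7382 and 6624 sense counts of Mir337 reappear as antisense counts of Mir3544, and the 730 and 526 of Mir136 as antisense counts of Mir3071. In the unstranded column Mir337 and Mir136 have 0 counts in both libraries. In that column 8 of the 10 genes were expressed. The paired sequences are shown because they overlap on opposite strands and yet carry different seeds.
miR-337-3p: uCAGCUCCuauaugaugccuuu
miR-3544-5p: aGAAAGGCaucauauaggagcug
miR-136-5p: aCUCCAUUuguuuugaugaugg
miR-3071-3p: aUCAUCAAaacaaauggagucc

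Antisense counts were 0 at all 10 genes in both libraries. The reverse-strand partners Mir3544 and Mir3071 had 0 sense counts in both libraries. A stretch of 18 nucleotides shared with any other annotated miRNA hairpin was found at Mir337 and Mir136 alone, and there with the opposite-strand partner. No such copy elsewhere among annotated miRNA genes could split the counts of the 10 genes.

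The hairpins of the 10 genes were 62 to 124 nucleotides long with a median GC content of 56.1%, beside 52.1% over expressed genes and 43.3% over the 35 expressed genes of the distal cluster. GC content ran from 40.3% at Mir136 to 70.2% at Mir770. Their predicted folding energy (RNAfold minimum free energy) had a median of -0.489 kcal/mol per nucleotide, beside -0.435 over expressed genes. Mir770 had the lowest value at -0.619 and Mir433 the highest at -0.361, and both genes were abundant.

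On total counts, 5 of the 10 genes had a lower CPM in replicate 2 and 5 a higher one, beside 57.9% of expressed genes that were lower in replicate 2. Under TMM or DESeq2 scaling 3 of the 10 were lower and 7 higher. The share over expressed genes was not computed there. Their median log2 ratio of replicate 2 to replicate 1 was -0.04 with TMM and 0.03 with DESeq2 size factors. Of the 10, 1 gene, Mir665, differed over 2-fold and was higher in replicate 1. Among expressed genes 25.4% differed over 2-fold, 19.8% being higher in replicate 1 and 5.62% in replicate 2, and among the 181 genes above 100 CPM in both libraries 20.4% did. With 1.5-fold, 2 of the 10 differed (Mir665 and Mir127), both higher in replicate 1, against 48.2% of expressed genes (33% higher in replicate 1 and 15.2% in replicate 2) and 39.8% of those above 100 CPM. The median absolute log2 ratio of replicate 2 to replicate 1, on total counts, was 0.18 over the 10 genes. It was 0.57 over expressed genes and 0.45 over those above 100 CPM. These medians were not computed under the other scalings, which shift every log2 ratio by 0.13 (TMM) or 0.20 (DESeq2). With 1 library on each side, these ratios compare libraries, not conditions, and carry no p-value.

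Mir665 was 2.52-fold lower in replicate 2 (95% counting interval 2.29 to 2.79), a log2 ratio of -1.34. On total counts its nearest neighbours on the chromosome had ratios near 0: Mir540, 167 bases away, had a log2 ratio of 0.11 and Mir337 one of 0.06. Under DESeq2 size factors the log2 ratio was -1.13 at Mir665, 0.31 at Mir540 and 0.26 at Mir337. The sequences of miR-665 are shown because this gene alone of the 10 passed 2-fold.
miR-665-5p: aGGGGCCUcugccucuauccaggauu
miR-665-3p: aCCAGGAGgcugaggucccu

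Mir127 was 1.54-fold lower in replicate 2 (1.53 to 1.55), whereas Mir433 was 1.34-fold higher (1.32 to 1.36) and Mir770 1.25-fold higher (1.23 to 1.27). Mir136 had a log2 ratio of -0.26 (-0.43 to -0.10), and Mir370 and Mir540 were 1.07-fold and 1.08-fold higher. The counting intervals of Mir431 (log2 -0.09 to 0.03) and Mir434 (log2 -0.09 to 0.01) included no difference, and 8 of the 10 left it out, as did 69.9% of expressed genes. Relative to the total, TMM scaling moves every log2 ratio up by 0.13 and DESeq2 size factors by 0.20, which turns the sign at Mir431 and Mir434 and leaves it at the other 8.

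**Figure D3:**
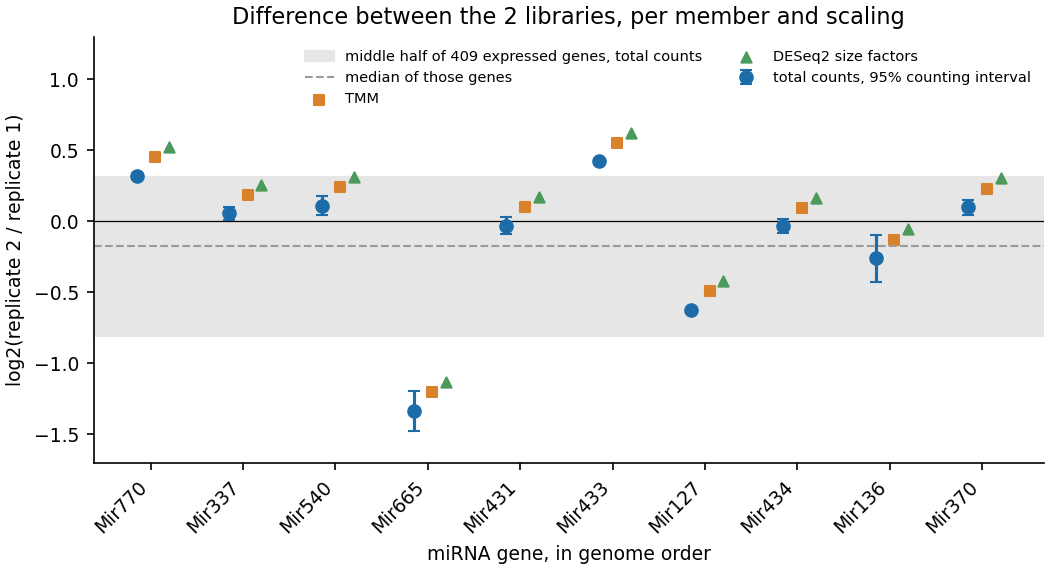
Log2 ratio of replicate 2 to replicate 1 for each gene in genome order, under total counts (circles, with 95% counting intervals), TMM (squares) and DESeq2 size factors (triangles); the grey band holds the middle 50% of the 409 expressed genes and the dashed line is their median under total counts. On total counts Mir665 lies below the band at -1.34, and Mir433 (0.42) and, narrowly, Mir770 (0.32) lie above it.

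Ratios of counts between genes within a library need no scaling, but equal capture of different sequences was not tested. Mir127 exceeded Mir433 8.98-fold in replicate 1 and 4.35-fold in replicate 2, and exceeded Mir770 8.08-fold and 4.20-fold. Mir770 to Mir433 was 1.11 and 1.04, although these genes lie in different host regions, in Meg3 and opposite Rtl1. Mir434 to Mir431, both opposite Rtl1, was 1.51 and 1.505, and Mir337 to Mir540 was 1.97 and 1.90. Mir540 to Mir665 changed most among adjacent genes, from 2.42 to 6.59. Among genes opposite Rtl1, the ratio of Mir434 to Mir431 was nearly equal in both libraries and that of Mir127 to Mir433 was not.

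The distal cluster, from Mir379 (109709060) to Mir3072 (109747960) and including Mir410, holds 44 annotated miRNA genes, of which 35 were expressed (79.5%). All 35 lie on the forward strand, whereas 5 of the 44 lie on the reverse strand and had antisense counts only. The sums of the cluster were 48982 CPM and 48159 CPM, so the 10 proximal genes stood 1.65-fold above it in replicate 1 and 1.32-fold in replicate 2. Stretches shared with other hairpins were looked for at the 10 proximal genes only. Loss of distal counts to reads with several places was therefore not tested. Without Mir127 the proximal genes came to 0.415 and 0.507 of the distal sum. The highest distal genes, Mir411 (6859 ± 1245 CPM), Mir382 (6287 ± 1968 CPM) and Mir487b (5956 ± 1270 CPM), were below the means of Mir127, Mir770 and Mir433. The median mean level of expressed distal genes was 285.8 CPM.

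Of its 35 expressed genes, 13 differed over 2-fold (37.1%), and 10 of the 23 above 100 CPM in both libraries did (43.5%). On total counts, their median absolute log2 ratios were 0.64 and 0.75, beside 0.18 at the proximal genes. The log2 ratios of expressed distal genes ran from -2.42 to 2.32, whereas those of the proximal genes ran from -1.34 to 0.42. Whether the 2 clusters differ in this was not tested, since each side has 1 library.

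**Figure D4:**
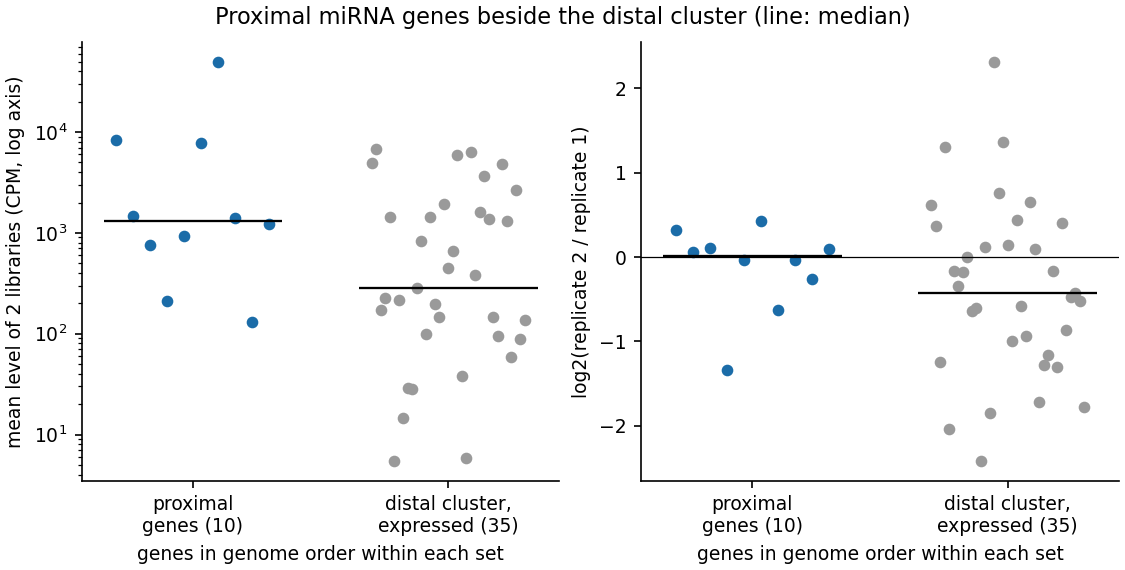
Left: mean level of the 2 libraries in CPM (log axis) for the 10 proximal genes and the 35 expressed genes of the distal cluster, in genome order within each set. Right: log2 ratio of replicate 2 to replicate 1 for the same genes; lines are medians (1307 and 285.8 CPM on the left, 0.01 and -0.43 on the right).

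By distance in log2(CPM + 1) over the 2 libraries, the gene outside the 10 nearest to Mir127 was Mir132 on chromosome 11 (42450.4 and 33684 CPM, distance 0.55), followed by Mir744 (35177 and 38951 CPM, distance 0.78). Mir770 and Mir433 lay closer to each other than to any gene outside the 10. Among genes outside the 10, the nearest to both Mir770 (distance 0.42) and Mir433 (distance 0.28) was Mir411 of the distal cluster, at 5979 CPM and 7739 CPM. The 2nd nearest were Mir191 for Mir770 (distance 0.42) and Mir674 for Mir433 (distance 0.36). With 2 libraries this describes similar levels and nothing more.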

How the data were processed

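Per the labels, short RNA of 2 cortex libraries was sequenced. Each deposited table gives raw counts of reads per gene in 3 columns (without strand and for each strand). The build, mm10, and the annotation, GENCODE M21, are as the deposited file descriptions state. Which aligner and counter were used is not given in the sources used here. Loss of reads that carry CAST/EiJ bases was not tested. The second count column was taken as sense, and 4 lines that name no gene (65.2% and 65.1% of reads) were left out of totals. Gene identifiers were matched to GENCODE M21 (2202 of 2202). Level is the sense count per 1000000 sense counts (CPM). Ratios use total sense counts; edgeR 4.0.16 (TMM) and DESeq2 1.42.0 gave other scalings. Intervals are exact (Clopper-Pearson); the script for those of the ratios, not of the shares, was tested on simulated counts. Folding used ViennaRNA 2.7.2. The 10 genes and the comparison lists were chosen with earlier results of these data known. All 10 genes are named; beyond them, every other gene of the stretch, the 3 highest distal genes and the 2 genes nearest to each of the 3 highest members are named. The depth was 14842903 and 12785704 reads in all.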

Additional observations from a re-analysis of the deposited data

How the results depend on the processing

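With all reads in the denominator in place of sense counts of miRNA genes, the summed level of the 10 genes fell to 25142 CPM, since sense counts are about 34.8% of the reads. Under TMM (71850.3 CPM), DESeq2 size factors (71738 CPM) and the unstranded column (76414 CPM) it moved by less than the SD of the libraries. Leaving out each library in turn gave 63599 to 80726 CPM for the sum, 61.6% to 74.8% for the share held by Mir127 and 1.32 to 1.65 for the ratio to the distal cluster. Of the 10 single levels, 10 stayed within 1 SD under TMM and under DESeq2 size factors, 10 moved with all reads as denominator and 6 with the unstranded column. The number of expressed genes was 10 with a minimum of 1 CPM, 10 CPM or 1 count in both libraries, and 8 in the unstranded column. A fold of 1.5 in place of 2 raised the number of genes apart between the libraries from 1 to 2, Mir665 and Mir127, and the number was 1 under both other scalings and with no low-count filter. The median log2 ratio of 0.01 became 0.14 with TMM and 0.21 with DESeq2 size factors. No paired analysis was possible because there is 1 group. With 2 libraries, a range or SD is a weak estimate of spread.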
